A study of Mus musculus with 10 samples.

Results

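The acrosome genes described here are 10 genes given by name, with no threshold on their values: Acr, Acrv1, Acrbp, Spaca1, Spaca3, Spaca4, Spaca7, Zpbp, Zpbp2 and Spam1. The list was drawn up with earlier results of these data known. Each of the 10 matched 1 Ensembl gene in the count files, which hold 55421 genes, and all 10 were among the 20240 genes tested. Testes were taken at postnatal day 21 (P21) from 3 Mov10+/+ (wild type) mice, replicates 1, 2 and 3, and from 3 Mov10-/- mice, replicates 2, 3 and 4, and polyadenylated RNA was sequenced from each. Mov10 encodes an RNA helicase. The Mov10-/- mice carry a germline deletion of the exons for the first helicase domain, made with the ubiquitously expressed Actb-Cre, on a mixed strain background. They are the survivors of a partial embryonic lethality and were fertile. The methods describe RNA from 6 pairs of testes, 3 of each genotype. The p-values thus set the genotype difference against the spread between pairs of the same genotype. MOV10-bound RNA from wild type P21 testes was sequenced in 4 further libraries.

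The acrosome is the secretory cap of the sperm head. It grows from the Golgi in round spermatids, holds proteases and a hyaluronidase in a protein matrix, and fuses with the sperm membrane near the egg, which exposes membrane proteins used to pass the cumulus and the zona pellucida. Its genes do not all start together. Proacrosin RNA is already made in meiotic (pachytene) cells, whereas the RNAs for SP-10 (Acrv1) and the hyaluronidase PH-20 (Spam1) belong mainly to the haploid phase. At P21 the first wave of germ cells has only just entered that phase in the mouse.

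Promoter sequences were at hand for 9 of the 10 genes, all but Acr (RefSeq, GRCm38.p6). The CREM protein, an activator of haploid genes, is known for binding the palindrome TGACGTCA, and its core letters are TGACG. The 4 stretches that follow precede the RefSeq start sites of 4 of the 6 genes with the larger changes in Mov10-/- testes. They are those with a marked motif there outside the annotated gene, printed so that their letters can be compared. In Spam1 and Spaca7 that motif is TGATGTCA, which was chosen after the sequences had been read and does not contain TGACG. The motifs chosen beforehand matched these 2 promoters only farther from the start site, at -226 and -242. Bases inside the annotated gene were left out, which removed 7 from the Spaca7 stretch. Capitals mark TGATGTCA in Spam1 and Spaca7, TGACG in Spaca3, and ATTGT, the reverse complement of the SOX core ACAAT, in Acrv1.
Spam1, chr6:24791068-24791187, plus strand: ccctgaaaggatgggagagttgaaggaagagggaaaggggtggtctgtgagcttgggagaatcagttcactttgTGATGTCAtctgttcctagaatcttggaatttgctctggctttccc
Spaca7, chr8:12572916-12573028, plus strand: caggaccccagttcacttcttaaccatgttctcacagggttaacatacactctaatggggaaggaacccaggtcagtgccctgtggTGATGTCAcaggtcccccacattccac
Spaca3, chr11:80858243-80858362, plus strand: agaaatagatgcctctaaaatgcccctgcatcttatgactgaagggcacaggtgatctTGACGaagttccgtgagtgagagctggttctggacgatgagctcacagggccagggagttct
Acrv1, chr9:36693100-36693219, plus strand: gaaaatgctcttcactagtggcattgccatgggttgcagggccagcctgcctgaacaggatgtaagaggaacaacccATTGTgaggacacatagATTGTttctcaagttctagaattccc

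Over the 300-base window of each promoter, searched on both strands, TGACGTCA was in 0 of the 9 and in 1.88% of 27025 RefSeq mouse promoters. The core TGACG, which that palindrome contains, was in 4 of the 9, namely those of Spaca1, Acrbp, Spaca3 and Zpbp2, against 21.02% of all promoters. TGATGTCA, which differs from the palindrome by 1 letter and was chosen after the sequences had been read, was in the promoters of Spam1 and Spaca7, with its first base at -46 and -34 from the start site, and in 3.76% of all promoters. ACAAT was in 2 of the 9 (31.6% of all), TATAAA in 1 (14.2%) and GTTGCC, an RFX core, in 1 (12.7%). These are letter matches in a window and show no binding.

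RNA-seq libraries held 5083407 to 9230540 reads that fell on genes, with each read worth 0.108 to 0.197 CPM (counts scaled to a common library total) before TMM scaling, and the 10 acrosome genes together took 2389 to 6228 reads in each. Mov10-/- replicate 3 was the shallowest, with 57.2% of its reads not aligned. Mov10 itself, the check of the labels, was at 114, 96.8 and 120 CPM in Mov10+/+ replicates 1, 2 and 3 and at 29.2, 26.7 and 26.8 CPM in Mov10-/- replicates 2, 3 and 4 (25.02% of the Mov10+/+ level by the fitted fold change, adjusted p = 0.00552 in edgeR's quasi-likelihood test). All other CPM values and the fold changes are after TMM scaling, and a called gene has a fold change over 2 and a Benjamini-Hochberg adjusted p under 0.05 over all genes tested.

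All 10 acrosome genes had a log2 fold change below 0 in Mov10-/- testes, with a median of -1.66 against 0.03 over all genes tested, and they spread into sizes of -0.16 to -0.55 for 4 of them and -1.31 to -2.71 for the other 6. In edgeR's quasi-likelihood test 0 of the 10 were called lower and 0 higher, where 0.00494% of all genes tested, which is Mov10 alone, were called lower. At an unadjusted p under 0.05 in the same test, 7 of the 10 were lower, against 11.9% of all genes. In 6 of the 10 every Mov10-/- library lay below every Mov10+/+ library, against 14.1% of all genes. As the 10 genes were chosen with earlier results of these data known, these shares describe the list and do not test it. Other tests of the same counts called 5 of the 10 lower, always Acrv1, Spaca1, Spaca3, Spaca4 and Spam1. These were DESeq2 (4.88% of all genes called lower), edgeR's exact test (5.09%) and its likelihood ratio test (5.45%). Limma voom called 0 of the 10, with 0.00494% of all genes.

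**Figure D1:**
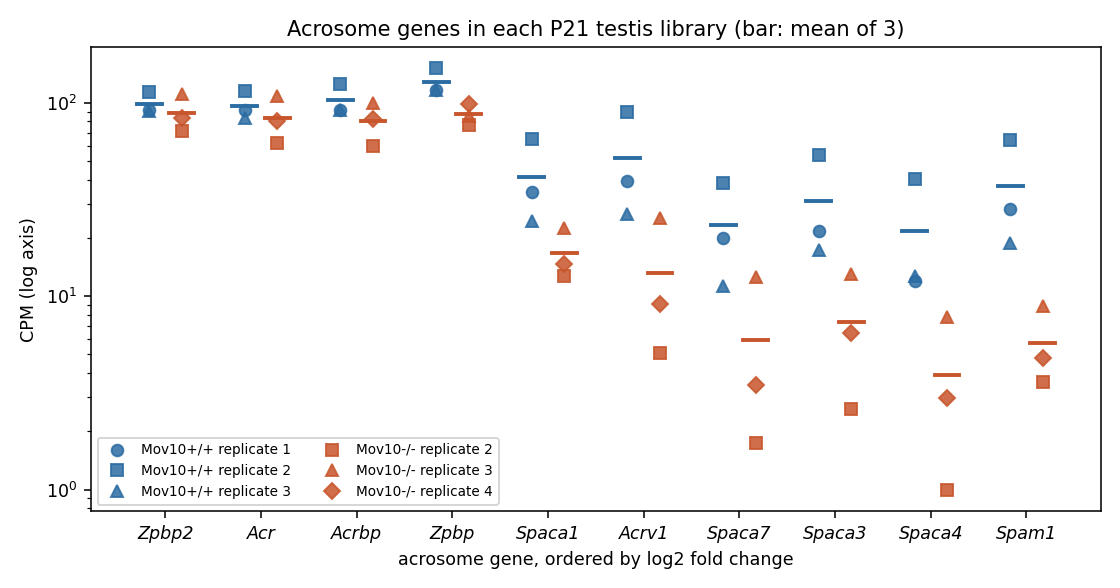
CPM (log axis) of each of the 10 acrosome genes in the 3 Mov10+/+ and 3 Mov10-/- libraries, ordered by log2 fold change, with points for libraries and bars for the means of 3. The libraries of Zpbp2, Acr and Acrbp intermingle near 100 CPM, while Spam1 shows a gap between 18.8 CPM in the lowest Mov10+/+ library and 8.84 CPM in the highest Mov10-/- library.

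Among the enzymes of the acrosome and their binding proteins, the protease and the hyaluronidase differed in size of change. Acr (ENSMUSG00000022622, chr15:89568326-89574585, mm10) encodes proacrosin, the serine protease precursor of the acrosomal matrix. It was at 91.9, 114 and 82.9 CPM in Mov10+/+ replicates 1, 2 and 3 and at 61.7, 108 and 80.6 CPM in Mov10-/- replicates 2, 3 and 4. The genotypes overlapped, since Mov10-/- replicate 3 exceeded 2 of the 3 Mov10+/+ libraries. The means were 96.3 ± 16.1 and 83.4 ± 23.3 CPM (SD, n = 3 each), with a log2 fold change of -0.21 (standard error 0.21) and an adjusted p of 0.629 in edgeR's quasi-likelihood test.

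Acrbp (ENSMUSG00000072770, chr6:125049689-125063267), the proacrosin binding protein that holds the zymogen in the granule, followed Acr closely. Its levels were 92.1, 125 and 91.8 CPM in Mov10+/+ and 59.9, 99.1 and 82.7 CPM in Mov10-/- libraries, and again only Mov10-/- replicate 3 reached into the Mov10+/+ range. The log2 fold change was -0.36 (standard error 0.20; adjusted p = 0.403, edgeR's quasi-likelihood test). The annotated gene Gm44597, on the same strand, covers 29.8% of the Acrbp exon bases but had 3 to 9 reads per library, and reads on shared bases may not have been counted for Acrbp.

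Spam1 (ENSMUSG00000029682, chr6:24791188-24801048) encodes PH-20, the hyaluronidase with which sperm loosen the cumulus matrix. It was at 28.3, 64.0 and 18.8 CPM in Mov10+/+ replicates 1, 2 and 3 and at 3.60, 8.84 and 4.81 CPM in Mov10-/- replicates 2, 3 and 4. No library overlapped, and the lowest Mov10+/+ library was 2.13 times the highest Mov10-/- library, the widest gap among the 10 genes. The means were 37.0 ± 23.8 and 5.75 ± 2.74 CPM (SD, n = 3 each), or 15.3% of the Mov10+/+ level by the fitted log2 fold change of -2.71 (standard error 0.53). Its adjusted p was 0.150 in edgeR's quasi-likelihood test and 0.000102 in DESeq2. Spam1 has a related hyaluronidase gene nearby on chromosome 6, Hyal5, so that reads on bases alike in both would be uncertain.

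Spaca7 (ENSMUSG00000010435, chr8:12573029-12600744) encodes a protein released from the acrosome that helps to disperse the cumulus. It was at 20.0, 38.3 and 11.3 CPM in Mov10+/+ libraries, and at 1.74, 12.5 and 3.46 CPM in Mov10-/- libraries, where replicate 3 lay above Mov10+/+ replicate 3. The log2 fold change was -2.02 (standard error 0.73; adjusted p = 0.221, edgeR's quasi-likelihood test), from as few as 14 reads in Mov10-/- replicate 2. It was the 1 gene of the 6 with larger changes whose genotypes overlapped, and DESeq2 gave it an adjusted p of 0.0575. D630011A20Rik on the opposite strand overlaps 13.5% of the Spaca7 exon bases and had 0 to 6 reads per library.

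**Figure D2:**
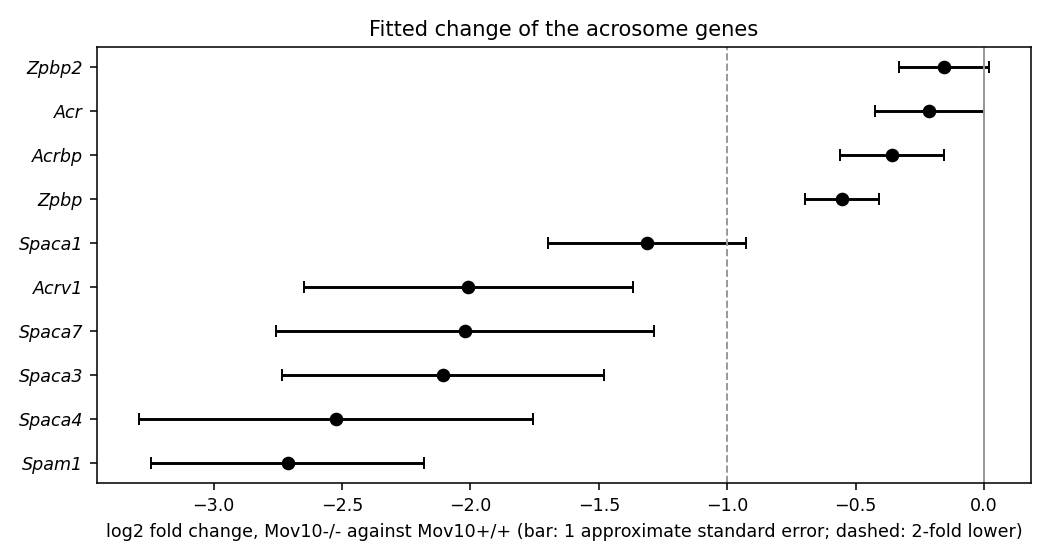
Fitted log2 fold change of each acrosome gene, Mov10-/- against Mov10+/+ (x axis), with bars for 1 approximate standard error and a dashed line at a fold change of 2. Zpbp2, Acr, Acrbp and Zpbp lie right of the dashed line, and the other 6 lie left of it with wider bars.

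Acrv1, Zpbp and Zpbp2 encode proteins of the acrosomal matrix. Acrv1 (ENSMUSG00000032110, chr9:36693220-36698843), the gene of SP-10, was at 39.3, 89.0 and 26.6 CPM in Mov10+/+ libraries and at 5.09, 25.3 and 9.13 CPM in Mov10-/- libraries. The genotypes did not overlap, but Mov10-/- replicate 3 came within 1.05-fold of Mov10+/+ replicate 3. The log2 fold change was -2.01 (standard error 0.64), with an adjusted p of 0.184 in edgeR's quasi-likelihood test and 0.0173 in DESeq2.

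Zpbp (ENSMUSG00000020193, chr11:11279626-11462408) and Zpbp2 (ENSMUSG00000017195, chr11:98551097-98558665) are paralogs for zona pellucida binding proteins that are needed for a compact acrosome. Zpbp was at 116, 150 and 117 CPM in Mov10+/+ libraries and at 76.3, 85.5 and 98.7 CPM in Mov10-/- libraries, with no overlap. Its change was small but its libraries were close, with a log2 fold change of -0.55 (standard error 0.14) and an adjusted p of 0.150 in edgeR's quasi-likelihood test. DESeq2 gave Zpbp an adjusted p of 0.0271, but its level was 68.1% of that in Mov10+/+ testes, inside the 2-fold limit. Spata48 on the opposite strand overlaps 5.25% of the Zpbp exon bases and had 27 to 301 reads per library. Zpbp2 was at 91.6, 113 and 90.4 CPM against 71.7, 111 and 82.9 CPM, so the genotypes overlapped (log2 fold change -0.16, standard error 0.18; adjusted p = 0.669, edgeR's quasi-likelihood test). Per exon length, in RPKM, the ratio of Zpbp2 to Zpbp was 1.998, 1.905 and 1.955 in Mov10+/+ and 2.37, 3.28 and 2.12 in Mov10-/- libraries, and the genotypes did not overlap.

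Spaca1, Spaca3 and Spaca4 encode membrane-associated acrosomal proteins. Spaca1 (ENSMUSG00000028264, chr4:34024874-34050191), which is needed to shape the acrosome and sperm head, was at 34.6, 64.6 and 24.5 CPM in Mov10+/+ libraries and at 12.8, 22.6 and 14.7 CPM in Mov10-/- libraries. No library overlapped, and the log2 fold change of -1.31 (standard error 0.39) was the smallest of the 6 larger ones. The adjusted p was 0.167 in edgeR's quasi-likelihood test and 0.0229 in DESeq2.

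Spaca3 (ENSMUSG00000053184, chr11:80858365-80867814) encodes a lysozyme-like protein of the acrosome. It was at 21.8, 53.5 and 17.3 CPM in Mov10+/+ libraries and at 2.61, 12.95 and 6.42 CPM in Mov10-/- libraries, with no overlap. The log2 fold change was -2.11 (standard error 0.63; adjusted p = 0.169, edgeR's quasi-likelihood test; 0.0129 in DESeq2). Spaca4 (ENSMUSG00000070563, chr7:45725107-45725813), a GPI-anchored protein used in zona penetration, had the lowest mean CPM of the 10 genes in each genotype. It was at 12.0, 40.5 and 12.7 CPM in Mov10+/+ libraries and at 0.993, 7.81 and 2.96 CPM in Mov10-/- libraries, the lowest of which rests on 8 reads. Its genotypes did not overlap, and the log2 fold change was -2.52 (standard error 0.77; adjusted p = 0.175, edgeR's quasi-likelihood test; 0.0141 in DESeq2).

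The highest and the lowest library were the same for every gene, while the order between them varied. Mov10+/+ replicate 2 was the highest of the 6 libraries in all 10 genes and Mov10-/- replicate 2 the lowest. Mov10-/- replicate 3 was the highest Mov10-/- library in 9 of them, Zpbp being the exception. Summed over the 10 genes, the libraries had 547, 853 and 493 CPM in Mov10+/+ and 296, 494 and 386 CPM in Mov10-/- testes. The sums of Mov10-/- replicate 3 and Mov10+/+ replicate 3 were alike, but single genes differed in both directions. Between these libraries, in that order, Acr was at 108 and 82.9 CPM and Spam1 at 8.84 and 18.8 CPM. The spread within a genotype was wide. The highest Mov10+/+ library was 2.87 times the lowest in the median acrosome gene and 1.39 times in the median gene of all tested, and in Mov10-/- testes these were 2.11 and 1.39. This spread differed between the genes, with a ratio of 1.25 for Zpbp2 and 3.40 for Spam1 among Mov10+/+ libraries.

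**Figure D3:**
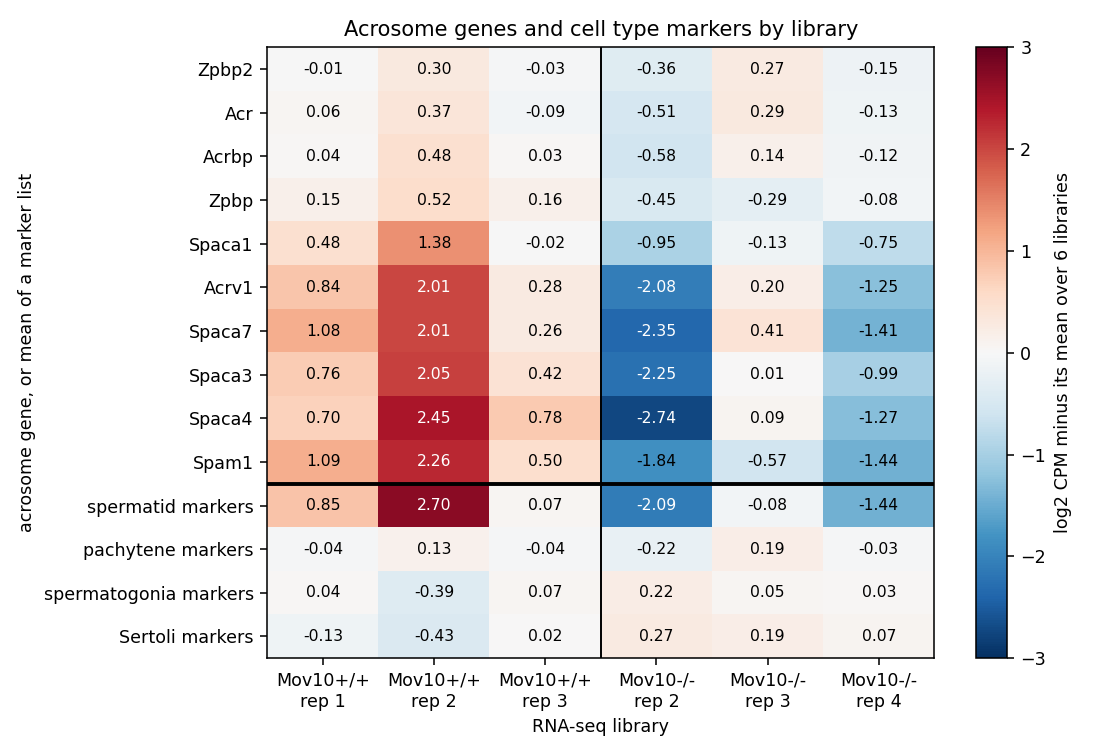
Log2 CPM of each acrosome gene minus its own mean over the 6 RNA-seq libraries, with the mean of the same quantity over 4 lists of cell type markers under the thick line. Rows of Spaca1 to Spam1 run from 2.45 in Mov10+/+ replicate 2 to -2.74 in Mov10-/- replicate 2. The row of spermatid markers has its extremes in the same 2 libraries, at 2.70 and -2.09, and the other marker rows stay between -0.43 and 0.27.

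The mean over the markers of spermatids took the same library order as the mean over the acrosome genes. Of 16 spermatid markers 15 were matched and 14 tested, all with a log2 fold change below 0 (median -2.24). Of the 14, 13 were lower at an unadjusted p under 0.05 (11.9% of all genes) and 6 had no overlap between genotypes (14.1%). The quasi-likelihood test of edgeR called 0 of them lower (0.00494% of all genes) and DESeq2 called 10 (4.88%). Their summed level was 227 to 1026 CPM in Mov10+/+ and 51.5 to 205 CPM in Mov10-/- testes, and none was at 0 in all libraries. The mean log2 deviation of these markers was 0.85, 2.70 and 0.07 in Mov10+/+ replicates 1, 2 and 3 and -2.09, -0.08 and -1.44 in Mov10-/- replicates 2, 3 and 4, while the same mean over the 10 acrosome genes was 0.52, 1.38, 0.23, -1.41, 0.04 and -0.76. The 12 markers of pachytene spermatocytes had a median log2 fold change of 0.03, 0 of them passed an unadjusted p of 0.05, and their summed level was 2035 to 2300 CPM against 1840 to 2498 CPM. In whole testes, fewer spermatids and less RNA per spermatid cannot be told apart, and the part of cell makeup in the values of the acrosome genes was not tested.

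Median log2 fold changes of the markers of other testis cells were 0.24 for spermatogonia (10 tested), 0.31 for Sertoli cells (9 of 10), 0.21 for Leydig cells (6 of 7) and 0.36 for peritubular, endothelial and macrophage genes (8). Epididymal markers, of which 2 of 6 were tested (median -0.86), summed to 17.5 to 35.5 CPM in Mov10+/+ and 0.617 to 70.2 CPM in Mov10-/- libraries, and the 2 differed in direction. Crisp1 was at 0.118, 12.7 and 24.6 CPM in Mov10+/+ and at 70.1, 0.411 and 0.494 CPM in Mov10-/- libraries. Rnase10 was at 17.4, 22.7 and 7.30 CPM in Mov10+/+ and at 0.124, 8.02 and 0.123 CPM in Mov10-/- libraries, highest in Mov10+/+ replicate 2 as the acrosome genes were. Of the markers not tested, Lcn5 had 15 reads in Mov10+/+ replicate 3, 25 in Mov10-/- replicate 2 and 0 elsewhere. Those were the 2 libraries with the most Crisp1. Lcn8 and Lcn9 had 0 reads in every library, and Defb20 had 2 to 12. The part of the epididymal markers in the values of the acrosome genes was not tested.

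Expressed per exon length, mean levels of the 10 genes spanned 14.2 to 61.5 RPKM in Mov10+/+ and 2.59 to 53.2 RPKM in Mov10-/- testes. In Mov10+/+ the order of mean levels was Acr at 61.5 RPKM, Zpbp2 at 58.5, Spaca3 at 32.5, Acrbp at 31.4, Spaca4 at 30.8, Zpbp at 30.0, Spaca1 at 25.8, Spaca7 at 23.7, Spam1 at 16.7 and Acrv1 at 14.2, and every gene overlapped the next one in its library values. In Mov10-/- testes Acr (53.2 RPKM) and Zpbp2 (52.6 RPKM) stood above Acrbp (24.6 RPKM) and Zpbp (20.4 RPKM) without overlap, and these stood above the other 6 without overlap, from Spaca1 at 10.5 RPKM to Spam1 at 2.59 RPKM. The Mov10-/- order partly restates the size of the changes. In Mov10+/+ testes the 4 genes with the smaller changes ranked 1, 2, 4 and 6.

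Ratios within a library do not depend on its scaling. They were taken for a few chosen pairs and separated the genotypes for some of them. The RPKM of Spam1 was 0.217, 0.396 and 0.160 times that of Acr in Mov10+/+ libraries and 0.0412, 0.0579 and 0.0422 times in Mov10-/- libraries. For Acrv1 over Acr the ratios were 0.184, 0.335 and 0.138 against 0.0354, 0.101 and 0.0487. For Spaca1 over Acr they were 0.370, 0.556 and 0.290 against 0.203, 0.206 and 0.179. All 3 ratios were lower in every Mov10-/- library, including replicate 3, whose level of Acr was close to the Mov10+/+ mean. Each divides a gene with a larger change by Acr, whose change was small, so the separation partly restates the sizes of the changes. The ratio of Acrbp to Acr ran from 0.479 to 0.530 in Mov10+/+ and from 0.439 to 0.491 in Mov10-/- libraries, and overlapped. So did the ratio of Spaca3 to Spaca4, at 1.35, 0.982 and 1.01 in Mov10+/+ and 1.95, 1.23 and 1.61 in Mov10-/- libraries.

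How alike 2 genes were across the 6 libraries was measured as the root mean square difference of their log2 CPM, each centred on its own mean, as a description of libraries that share a depth and a cell makeup. The closest pair was Acr and Zpbp2 (0.0799), then Acr and Acrbp (0.0939) and Acrbp and Zpbp2 (0.131). Among the genes with larger changes, Acrv1 was closest to Spaca3 (0.166) and Spaca7 (0.183). Spaca4 and Zpbp2 were farthest apart (1.46). Outside the list, among 15721 protein-coding genes tested, those nearest to the mean profile of the 10 acrosome genes were 1700007K13Rik (0.0964), 1700001C02Rik (0.104), 1700001L19Rik (0.107), Tssk1 (0.108), a kinase gene of spermatids, and Meltf (0.123). Their log2 fold changes lay between -1.62 for Tssk1 and -1.26 for 1700001L19Rik and Meltf, which their choice by profile largely fixed.

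The size of change rested on single libraries to different degrees. Without Mov10+/+ replicate 2 the median log2 fold change of the 10 genes was -1.10, and without Mov10-/- replicate 3 it was -2.18. Spam1 stayed between -3.13 and -2.06 with each library left out, and Zpbp between -0.66 and -0.42. Acrv1 ranged from -2.86 to -1.37, Spaca4 from -3.45 to -1.72, Spaca7 from -3.15 to -1.47, Spaca3 from -2.77 to -1.45 and Spaca1 from -1.59 to -0.83, each with the value nearest to 0 when Mov10+/+ replicate 2 was left out. Acr reached -0.03 and Zpbp2 -0.03 at the nearest to 0. Every one of these values was below 0 for all 10 genes.

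Leaving libraries out also moved the calls. DESeq2, which called 5 of the 10 lower with all 6 libraries, called 6 without Mov10+/+ replicate 3 (5.21% of all genes), 6 without Mov10-/- replicate 3 (4.96%) and 4 without Mov10+/+ replicate 1 (3.97%). It called 1 of the 10 without Mov10+/+ replicate 2, Mov10-/- replicate 2 or Mov10-/- replicate 4, where the share of all genes called lower was also smaller, at 0.982%, 1.68% and 2.12%. That 1 gene was Spam1 each time, and Spam1 was called by DESeq2 whichever library was left out, with adjusted p of at most 0.00910. These fits were added after the data had been seen. Without Mov10-/- replicate 3 all 10 genes lay below every Mov10+/+ library in both remaining Mov10-/- libraries, as did 21.9% of all genes.

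**Figure D4:**
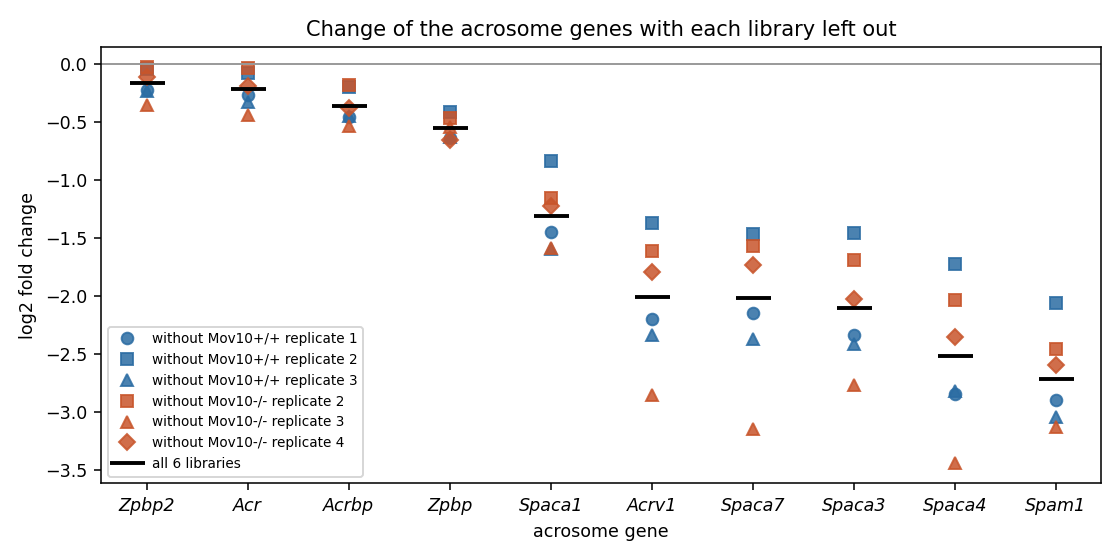
Log2 fold change of each acrosome gene with 1 library left out at a time (points) and with all 6 (bars). Points without Mov10+/+ replicate 2 lie nearest to 0 for Spaca1 to Spam1 and points without Mov10-/- replicate 3 mostly lie farthest, from -1.72 to -3.45 for Spaca4.

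Other genes of acrosome contents and membranes also ranged from small to large changes. Of the 17 tested, 15 had a log2 fold change below 0 (median -2.09). At an unadjusted p under 0.05, 9 were lower (11.9% of all genes), and 8 had no overlap (14.1%). Called lower were 0 by edgeR's quasi-likelihood test and by voom (0.00494% of all genes each). DESeq2 called 9 (4.88%), the exact test 8 (5.09%) and the likelihood ratio test 9 (5.45%). Lowest by p were Hyal5, the hyaluronidase beside Spam1 (36.7 ± 28.2 against 3.10 ± 1.41 CPM; log2 fold change -3.60, standard error 0.64), Eqtn, a gene for an acrosomal membrane protein of gamete fusion (-2.65, standard error 0.60), and Zp3r, the gene of the matrix protein sp56 (-2.51, standard error 0.57). The most abundant per length were near 0, namely the flippase gene Atp8b3 (log2 fold change -0.03, standard error 0.21), Lypd4 (-0.19, standard error 0.20) and the protease inhibitor gene Spink2 (-0.05, standard error 0.21), and each overlapped between genotypes.

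Genes for building the acrosome were closer to the median of all genes. Of 19 listed genes 18 were matched and 17 tested, with a median log2 fold change of -0.19. At an unadjusted p under 0.05, 5 were lower (11.9% of all genes), and 5 had no overlap (14.1%). The quasi-likelihood test of edgeR and voom called 0 lower (0.00494% of all genes each). DESeq2 called 2 (4.88%), and the exact and likelihood ratio tests called 3 each (5.09% and 5.45%). Ccin, the gene of the calyx protein calicin, had 37.3 ± 48.8 CPM in Mov10+/+ and 1.65 ± 1.25 CPM in Mov10-/- testes (SD, n = 3 each; log2 fold change -4.59, standard error 1.16), with 93.5 CPM in Mov10+/+ replicate 2. Fam209 was at -2.04 (standard error 0.58) and the actin-like gene Actl7a at -2.20 (standard error 0.66). Abundant members were nearer to 0, with Spata16, a Golgi protein gene, at -0.23 (standard error 0.19), Rimbp3 at -0.29 (standard error 0.20) and Actl9 at -0.66 (standard error 0.26).

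**Figure D5:**
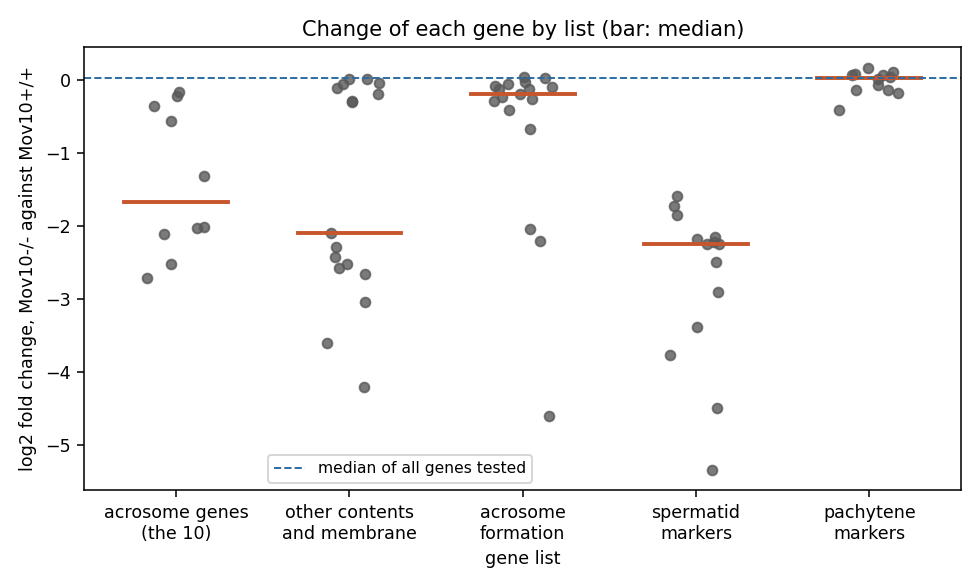
Log2 fold change of each tested gene, Mov10-/- against Mov10+/+, for the 10 acrosome genes, the other contents and membrane genes, the formation genes, and spermatid and pachytene markers, with bars for list medians and a dashed line for the median of all genes tested. List medians are -1.66, -2.09, -0.19, -2.24 and 0.03 from left to right.

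The deposited counts of MOV10-bound RNA held few reads on any gene and almost none on the acrosome genes. Of all reads in each of these libraries, 99.5% to 99.6% were not aligned and 0.026% to 0.052% fell on genes. In CLIP-seq, where RNA crosslinked to MOV10 is recovered with an antibody, replicates 1, 2 and 3 had 0 reads on all 10 genes and replicate 5 had 1 read, on Zpbp, of 15710 reads on genes in 4 libraries. Replicates 1, 2 and 3 differed by less than the sampling noise and were counted as 1 sample by averaging. That leaves 1 of 8526 reads (exact Poisson 95% interval 0.0253 to 5.57 reads, counting error only), while the share of the 10 genes in Mov10+/+ RNA-seq, 0.0624%, would give 5.32 reads. That number is inside the interval, so a difference from RNA-seq was not detectable at this depth.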

How the data were processed

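Per the labels and methods, the authors trimmed reads, mapped them with STAR to mm10, and deposited the raw count of reads per Ensembl gene (htseq-count, release 99) for each library. The strand setting of the counting was not given in the sources used here. The 10 acrosome genes and all lists were chosen with earlier results of these data known. Symbols, coordinates and exon lengths came from GENCODE M21 on GRCm38, which matched 55240 of 55421 genes, and 113 of 115 list genes. H1f9 and Garin1b were not matched.

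The 20240 genes above 1 CPM in at least 3 of 6 libraries were fitted with edgeR 4.0.16 in R 4.3.3 (TMM, quasi-likelihood test, Benjamini-Hochberg adjustment), without a block. Standard errors are the log2 fold change over the square root of F. The limits for a call were 2-fold and 0.05 (adjusted p). Alternatives were DESeq2 1.42.0, edgeR's exact and likelihood ratio tests, limma 3.58.1 (voom), other scalings and filters, a replicate block and each library left out. Only the fits were tested on simulated counts. Centred log2 CPM used a pseudocount of 0.125. Figures were drawn in Python 3.11.15.

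Named beyond the 10 genes and Mov10 were, from each of the lists of other contents and of formation genes, the 3 with the smallest p and the 3 with the highest mean RPKM, and the 5 protein-coding genes nearest in profile. The CLIP-seq libraries had 3404 to 4934 reads on genes, and replicates 1, 2 and 3 differed from each other by a chi-square of 0.219 to 0.237 per degree of freedom, against 1.63 to 1.93 with replicate 5.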

Additional observations from a re-analysis of the deposited data

Results flagged for a closer look

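The count of 1 CLIP-seq read on Zpbp in replicate 5 was flagged as an outlier beside the 0 reads in each of replicates 1, 2 and 3. The nominal rate of that criterion, about 1 of 20 groups of 4 samples, was not checked for counts of 0 and 1. Replicates 1, 2 and 3 were also counted as 1 sample above, so the 4 counts are not independent. A single read does not separate a library from the others at 3404 to 4934 reads per library.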

How the results depend on the processing

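Every log2 fold change of the 10 acrosome genes was below 0 under all 16 alternatives (other tests, scalings and filters, the block, and each library left out). The number of the 10 called lower was 0 by the quasi-likelihood test of edgeR under every scaling and filter and with each library left out, 0 by voom, and 5 by DESeq2, by the exact test and by the likelihood ratio test. For the other contents and membrane genes it was 0 in the main test, 9, 8 and 9 by these 3 tests and 2 with a replicate block, and for the formation genes 0 in the main test and 2, 3 and 3 by the same 3 tests. Over all genes tested, 1 was called lower and 0 higher in the main test, 988 and 51 by DESeq2, 1031 and 70 by the exact test, 1104 and 83 by the likelihood ratio test, 1 and 1 by voom, 3 and 3 without a composition factor, 5 and 5 without a filter, and 148 and 36 with the block. The replicate block used numbers 2 and 3, which both genotypes carry. Deviations of same-numbered libraries correlated at -0.45 and -0.34, and those of other combinations at -0.21 to 0.44. With 3 libraries per genotype these values cannot decide whether the numbers pair the testes, and a pairing is not stated. With the block 0 of the 10 genes were called and their median was -1.64. With each library left out, the median of the 10 genes ran from -2.18 to -1.10. The number without overlap ran from 6 to 10, against 16.0% to 21.9% of all genes. The number called by DESeq2 (chosen after seeing the data) ran from 1 to 6, against 0.982% to 5.21% of all genes. The log2 fold change of Mov10 ran from -2.08 to -1.95. Its call was lost without Mov10-/- replicate 3 (adjusted p = 0.106, edgeR's quasi-likelihood test) or Mov10-/- replicate 4 (0.143). The CLIP-seq reads on the 10 genes ran from 0, without replicate 5, to 1. The cause of these shifts was not tested. Depth limits Spaca4 and Spaca7 most, with 8 and 14 reads in Mov10-/- replicate 2.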
